A study of Homo sapiens with 12 samples.

Results

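The p24 proteins, encoded by the TMED genes, are membrane proteins that cycle between the endoplasmic reticulum (ER) and the Golgi. Their luminal part holds cargo, and their short cytoplasmic tail binds the COPII coat of vesicles that leave the ER and the COPI coat of vesicles that return to it. They work as mixed complexes with members of 4 subfamilies, alpha, beta, gamma and delta, and are known as adaptors that sort proteins with a glycosylphosphatidylinositol (GPI) anchor, and some Wnt ligands, into vesicles. The 8 genes described here, TMED1, TMED2, TMED3, TMED4, TMED5, TMED7, TMED9 and TMED10, were taken by symbol. All 8 were found among the 26357 genes named in the 4 deposited tables, and all 8 passed the filter on low values that left 12092 genes for testing.

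HMLE cells are human mammary epithelial cells that were made immortal in culture, and their RNA was sequenced in 12 libraries, 3 for each of 4 groups. Salinomycin carries potassium ions across membranes. The groups were HMLE-Twist cells with salinomycin at 0.2 uM over 24 h, HMLE-Twist cells given DMSO as the mock, HMLE-pBp cells given salinomycin at the same dose and time, and HMLE-pBp cells given the mock. The labels call HMLE-Twist, which carries the transcription factor TWIST1, the cells after an epithelial to mesenchymal transition (EMT), and HMLE-pBp the nonEMT cells. Whether each line is a clone or a pool is not given in the sources used here, and the series text calls the 3 libraries of a group biological triplicates without saying what was separate, so that the p-values cover the spread between these libraries. The title of the series names genes of the ER and Golgi, which is the question the salinomycin comparisons address here for the p24 genes.

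Recovered reads summed to between 17.91 M and 26.73 M per library. A level below is in FPKM, fragments per kilobase of gene scaled to the depth of the library, on 1 scale over the 12 libraries. A log2 change is a difference of log2(FPKM + 1), which understates the change of a low gene, and "rose" and "fell" stand only for an adjusted p under 0.05 in limma. TWIST1 lay at 693 to 1162 FPKM in HMLE-Twist with salinomycin, at 496 to 1088 in HMLE-Twist mock, at 1.80 to 2.31 in HMLE-pBp with salinomycin and at 2.43 to 2.50 in HMLE-pBp mock. The epithelial markers CDH1 and EPCAM did not exceed 0.822 FPKM in any HMLE-Twist library and were at least 136 FPKM in every HMLE-pBp library. The summed level of 7 mesenchymal markers was 4686 to 5436 FPKM in HMLE-Twist with salinomycin, against 3789.8 to 4667 in HMLE-Twist mock. Most of that sum was VIM, FN1 and TWIST1, while COL3A1 was at 81.4 to 203 FPKM with salinomycin, against 314 to 597 in the mock, and the part of these markers in the results below was not tested. The leukocyte markers PTPRC and CD3E stayed at or under 0.0287 FPKM in all 12 libraries, while CD14 reached 28.6 FPKM in HMLE-pBp mock. In a principal component analysis of the tested genes the first component, with 86.2% of the variance, separated the lines. On component 3, with 4.11%, HMLE-Twist mock replicate 1 had the lowest score of all libraries, -27.6, with replicates 2 and 3 of its group at -13.21 and 6.39. HMLE-pBp salinomycin replicate 1 was next, at -20.2, and had the lowest score on component 2, -26.65. The component 3 score rose with the replicate number in HMLE-Twist mock and in the HMLE-pBp groups. Several p24 values of HMLE-Twist mock replicate 1 also differed from those of the other mock libraries of its line. Each member's response in HMLE-Twist, its difference between the lines and its gap between the lines under the mock are therefore also given without it. Since p24 values entered the choice of this library, the results without it are not an independent check.

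The start regions of the p24 genes are shown first, for the members that the results turn on and in whose windows a searched motif was found. RefSeq (GRCh38.p14) gave 7 start regions for 6 of the 8 members, from 250 bases before to 50 bases after the start, and none was given for TMED4 and TMED9. Of 6 motifs of stress and secretory gene control that were searched on both strands, only the Golgi stress element was present, in TMED2 and in TMED3. It was spelled ACGTGGC or, on the other strand, GCCACGT, and 3.22% of 35116 start regions of that length hold it. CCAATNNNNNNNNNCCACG (the ER stress element, ERSE, in 0.0769% of start regions), ATTGGNCCACG (ERSE-II, 0.0541%), TGACGTGG (UPRE, 0.729%), TGACGTCA (CRE, 1.85%) and TCACGTGA (an E-box bound by TFE3, 0.98%) were in none of the 7 windows. The shorter letters CACGTG (an E-box core, in 7.26% of start regions) and ACGTG (in 21.4%, and part of the Golgi stress element, the UPRE and both E-boxes) were added after the sequences had been seen. They matched in TMED10 and, for the shorter letters alone, in TMED7, and TMED2 and TMED3 hold ACGTG only within the Golgi stress element. The stretches below run 5′ to 3′ on the gene's strand, and the capitals mark the match.

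TMED2: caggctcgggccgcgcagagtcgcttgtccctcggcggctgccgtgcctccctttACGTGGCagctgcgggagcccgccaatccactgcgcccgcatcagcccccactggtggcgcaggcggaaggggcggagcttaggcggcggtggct
TMED3: gctccgctggtGCCACGTctatccccttac
TMED10: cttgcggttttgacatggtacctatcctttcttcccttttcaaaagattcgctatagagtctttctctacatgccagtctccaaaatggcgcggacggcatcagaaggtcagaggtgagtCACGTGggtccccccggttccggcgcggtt
TMED7: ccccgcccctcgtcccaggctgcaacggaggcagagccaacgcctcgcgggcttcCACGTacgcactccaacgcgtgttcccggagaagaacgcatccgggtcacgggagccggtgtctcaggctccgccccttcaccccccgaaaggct

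The TMED2 stretch is the 150 bases before the start (chr12:123584402-123584551, plus strand), with the Golgi stress element 95 to 89 bases before it. The TMED3 stretch is 30 bases behind the start (chr15:79311129-79311158, plus strand), with the element 28 to 34 bases after the first transcribed base. For TMED10 (chr14:75176613-75176762, minus strand) the E-box core lay 30 to 25 bases before the start. In TMED7 (chr5:115626037-115626186, minus strand) the ACGTG letters, read on the other strand, lay 95 to 91 bases before the start. A match describes these letters and is not a measured site.

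Levels differed widely within the family. In every group TMED9 and TMED2 were the most abundant members, at 337 ± 25.4 and 289.9 ± 8.32 FPKM (SD, n = 3) in HMLE-Twist with salinomycin, and no member averaged under 17.0 FPKM in any group. The 8 genes summed to 904 ± 26.7 FPKM in HMLE-Twist with salinomycin, against 609 ± 8.82 FPKM in HMLE-Twist mock (606 FPKM without replicate 1). The sum was 1638 ± 84.2 FPKM in HMLE-pBp with salinomycin, against 1419.6 ± 96.6 FPKM in HMLE-pBp mock (SD, n = 3 each). The 3 salinomycin libraries lay above the 3 mock libraries in either line. In bulk RNA a gene used by fewer cells and a gene with less RNA per cell cannot be told apart. Behind the levels were 630 to 21514 reads per member and library.

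**Figure D1:**
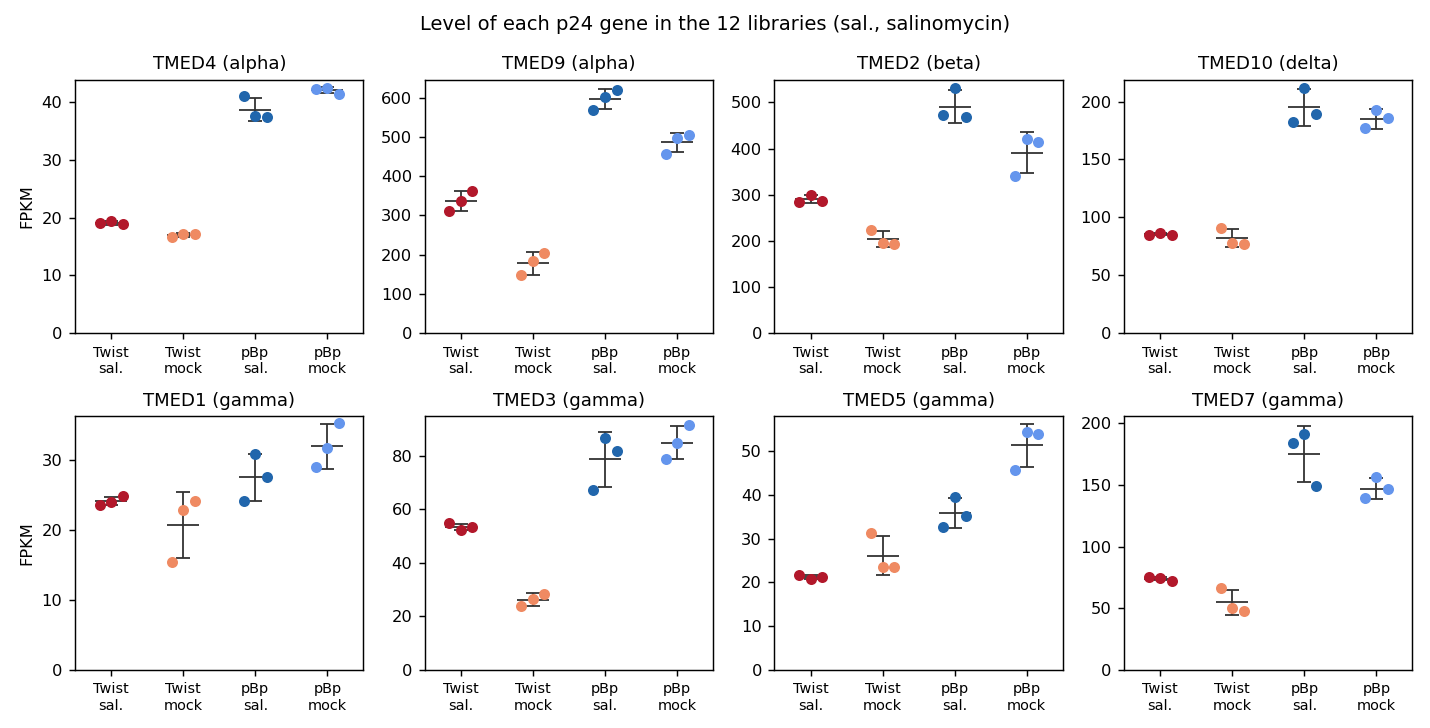
Level of each p24 gene in FPKM (linear axis from 0) in the 12 libraries. Points are libraries, the long line is the mean and the bars are the SD of 3; in TMED3 and TMED9 every salinomycin point of HMLE-Twist lies above its mock points, and all points of TMED10 in HMLE-Twist lie under those in HMLE-pBp.

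In HMLE-Twist cells, 4 of the 8 members rose with salinomycin, TMED3, TMED9, TMED2 and TMED7, and none fell. Of all tested genes 12.9% rose in this comparison and 26.5% were called either way, and the median change of the 8 members was 0.33 on the log2 scale, against -0.01 over all tested genes. The members called came from the alpha, beta and gamma subfamilies, and the only delta member, TMED10, was not called. For 5 of the 8 genes, TMED4 added to these 4, every salinomycin library lay above every mock library, which held for 19.1% of all tested genes, and for TMED5 every one lay below, as for 21.2%. With the replicate number as a block within each line 40.7% of all tested genes were called, and 5 members, the same 4 that rose and TMED5, which fell.

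TMED3, a gamma member, changed most in HMLE-Twist. It was at 54.7, 52.4 and 53.4 FPKM with salinomycin, against 23.7, 26.6 and 28.3 FPKM in the mock. The groups did not overlap, and the change was 1.01 ± 0.10 (log2, SE), a 2.01-fold rise (adjusted p = 4.6e-05). Without mock replicate 1 it was 0.94 ± 0.10 (adjusted p = 1.67e-04).

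The alpha member TMED9, known as a cargo receptor that holds misfolded membrane proteins in the early secretory pathway, was at 311, 338 and 361 FPKM with salinomycin, against 147, 184 and 203 FPKM in the mock. Every salinomycin library was above every mock library, and the mock library with 147 FPKM was replicate 1. The change was 0.93 ± 0.11 (log2, SE; adjusted p = 1.01e-04), and 0.79 ± 0.08 without that library (adjusted p = 1.1e-04). Its alpha paralog TMED4 was far lower, at 19.0, 19.5 and 18.9 FPKM with salinomycin, against 16.6, 17.1 and 17.2 FPKM in the mock. Those 6 libraries were tightly grouped and did not overlap, yet the change of 0.16 ± 0.06 was not called (adjusted p = 0.0809; 0.15 and 0.103 without mock replicate 1). The ratio of TMED9 over TMED4 was 17.6 ± 1.37 with salinomycin and 10.5 ± 1.52 in the mock (SD, n = 3 each), or 11.3 without mock replicate 1. In HMLE-pBp this ratio was 15.5 ± 1.4 with salinomycin and 11.5 ± 0.678 in the mock, and the groups did not overlap in either line.

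TMED2, the only beta member, needed together with TMED10 for the export of GPI-anchored proteins from the ER, was at 284, 299 and 287 FPKM with salinomycin, against 223, 196 and 193 FPKM in the mock. The groups were apart, with a change of 0.51 ± 0.09 (log2, SE; adjusted p = 0.00206), and of 0.58 ± 0.09 without mock replicate 1 (adjusted p = 0.00155). Its delta partner TMED10, also known as a COPI vesicle protein that binds ARF1, was at 85.0, 86.2 and 85.0 FPKM with salinomycin, against 90.6, 78.0 and 76.9 FPKM in the mock. Mock replicate 1 was the highest of these 6 and the groups overlapped, and the change was 0.06 ± 0.08 (95% interval -0.12 to 0.24; adjusted p = 0.623), or 0.14 ± 0.07 without that library (adjusted p = 0.189). The ratio of TMED2 over TMED10 was 3.34, 3.48 and 3.37 with salinomycin, against 2.46, 2.51 and 2.50 in the mock, and the groups did not overlap. In HMLE-pBp this ratio was 2.6, 2.51 and 2.47 with salinomycin, against 1.92, 2.17 and 2.23 in the mock, also without overlap.

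Among the other gamma members, TMED7, which carries the receptor TLR4 towards the cell surface, was at 75.1, 74.2 and 72.4 FPKM with salinomycin, against 66.3, 50.3 and 47.9 FPKM in the mock. The mock value of 66.3 was again replicate 1, and the groups did not overlap. The change was 0.44 ± 0.12 (adjusted p = 0.0198) and 0.58 ± 0.10 without that library (adjusted p = 0.00202). This call was lost without mock replicate 2 (adjusted p = 0.074), mock replicate 3 (0.0623), salinomycin replicate 1 (0.0624) or salinomycin replicate 2 (0.0541), within a range of 0.00202 to 0.074 over 22 alternatives. TMED7 shares exons with the read-through gene TMED7-TICAM2, to which 7 to 41 reads per library were assigned, so that reads of the 2 may have been split by the counting.

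TMED5, the gamma member known to act in the sorting of GPI-anchored proteins, had values on the other side of the mock. It was at 21.7, 20.7 and 21.3 FPKM with salinomycin, against 31.2, 23.4 and 23.6 FPKM in the mock, with no overlap and with mock replicate 1 highest. The change of -0.27 ± 0.12 was not called (adjusted p = 0.105), was -0.14 ± 0.10 without that library (adjusted p = 0.307), and was called with the replicate number as a block within the line (-0.27, adjusted p = 0.0262), within a range of 0.0262 to 0.307 over the alternatives. TMED1, a gamma member that binds the interleukin receptor IL1RL1, was at 23.5, 23.9 and 24.8 FPKM with salinomycin, against 15.4, 22.8 and 24.1 FPKM in the mock. These groups overlapped, and the change was 0.23 ± 0.15 (adjusted p = 0.279). Without mock replicate 1, which had the lowest value, it was 0.04 ± 0.11 (adjusted p = 0.841).

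In HMLE-pBp cells, 1 of the 8 members rose, TMED2, and 1 fell, TMED5. Over all tested genes 9.63% rose and 9.49% fell, 19.1% in all, and the median change of the members was -0.02 on the log2 scale, against -0.01 over all tested genes. Without overlap TMED2 and TMED9 lay above the mock, as 20.2% of all tested genes did, and TMED4 and TMED5 below it, as 21.4% did. With the replicate block within each line 36.9% of all tested genes were called, and 3 members, TMED2 and TMED9, which rose, and TMED5, which fell. TMED2 was at 473, 532 and 469 FPKM with salinomycin, against 339.7, 419.8 and 414 FPKM in the mock. The groups did not overlap, and the rise was 0.33 ± 0.09 (log2, SE; adjusted p = 0.029). That call was lost without mock replicate 1 (0.23, adjusted p = 0.0927), salinomycin replicate 1 (0.36, 0.0563) or salinomycin replicate 2 (0.27, 0.0985), and in the 6 libraries of the line alone (adjusted p = 0.0628), within a range of 0.0103 to 0.0985 over the alternatives.

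TMED5 was at 32.7, 39.5 and 35.1 FPKM with salinomycin, against 45.7, 54.3 and 53.8 FPKM in the HMLE-pBp mock. Every salinomycin library was under every mock library, and the change was -0.51 ± 0.12 (log2, SE; adjusted p = 0.0108). Without mock replicate 3 its adjusted p was 0.05 and the call was lost, within a range of 0.00199 to 0.05 over the alternatives. TMED9 was at 569, 603 and 619 FPKM with salinomycin, against 457, 497 and 504 FPKM in the mock, again without overlap. Its change of 0.30 ± 0.11 was not called (adjusted p = 0.0729) but was with the replicate block within the line (0.30, adjusted p = 0.00791), and the alternatives ran from 0.00791 to 0.179.

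The remaining 5 members were not called in HMLE-pBp. TMED7 was at 184, 191 and 149 FPKM with salinomycin, against 139, 156 and 147 FPKM in the mock, and salinomycin replicate 3 lay among the mock libraries (0.24 ± 0.12, adjusted p = 0.185). TMED3 was at 67.0, 86.7 and 81.9 FPKM with salinomycin, against 78.8, 84.6 and 91.3 FPKM in the mock, with overlapping groups and a change of -0.12 ± 0.10 (95% interval -0.34 to 0.11; adjusted p = 0.45). TMED10 was at 182, 212 and 189.6 FPKM with salinomycin, against 177, 193 and 186 FPKM in the mock (0.07 ± 0.08, adjusted p = 0.586). These ranges overlap in TMED3 and TMED10, and TMED4 was the only 1 of the 5 whose groups were apart. TMED4 was at 41.0, 37.6 and 37.5 FPKM with salinomycin, against 42.3, 42.4 and 41.5 FPKM in the mock (-0.12 ± 0.06, adjusted p = 0.209). TMED1 was at 24.1, 30.8 and 27.6 FPKM with salinomycin, against 28.9, 31.7 and 35.2 FPKM in the mock (-0.21 ± 0.15, adjusted p = 0.328).

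**Figure D2:**
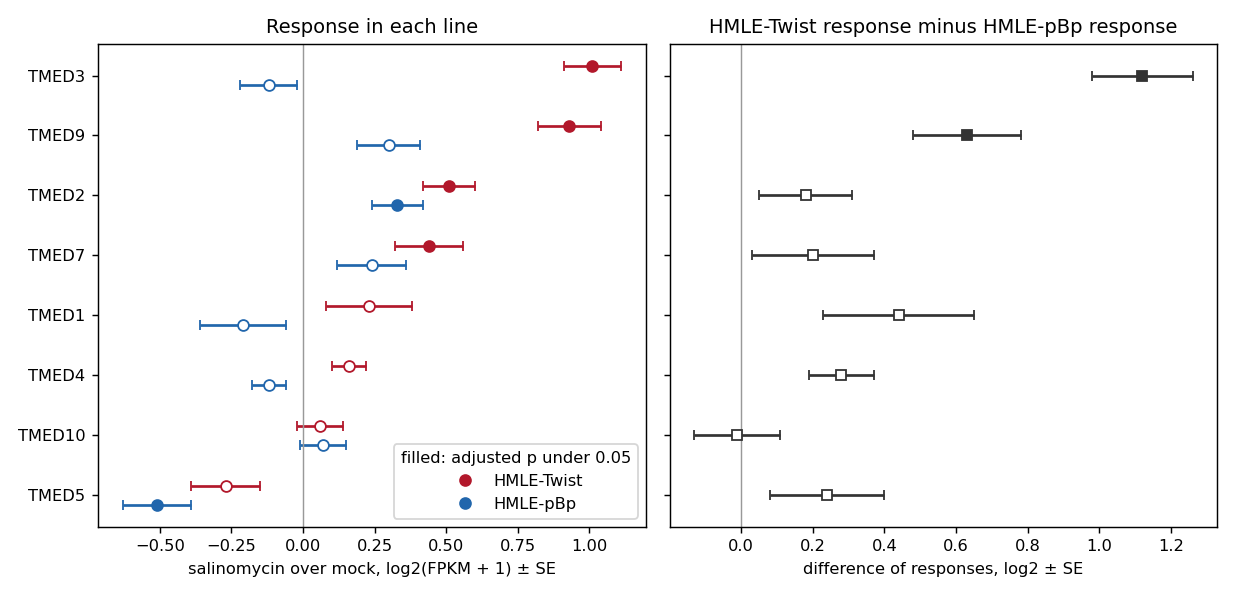
Left, change of each p24 gene with salinomycin over the mock in log2(FPKM + 1) with its SE, HMLE-Twist above HMLE-pBp; right, the HMLE-Twist change minus the HMLE-pBp change. Filled symbols have an adjusted p under 0.05; TMED3 shows the largest difference of the 8, 1.12, and TMED10 lies near 0 in both panels.

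The response in HMLE-Twist exceeded that in HMLE-pBp for 2 of the 8 members, TMED3 and TMED9, and for none was it called smaller. Over all tested genes 13.6% differed, 6.95% towards HMLE-Twist and 6.68% the other way. With the replicate block within each line 32.5% of all tested genes differed, and 3 members, TMED3, TMED9 and TMED4. For TMED3 the difference was 1.12 ± 0.14 (log2, SE; adjusted p = 8.97e-04), and 1.05 ± 0.14 without HMLE-Twist mock replicate 1 (adjusted p = 0.00164). For TMED9 it was 0.63 ± 0.15 (adjusted p = 0.0208), and 0.50 ± 0.11 without that library (adjusted p = 0.0143). The TMED9 call was lost without HMLE-Twist salinomycin replicate 3 (adjusted p = 0.06), HMLE-pBp mock replicate 2 (0.0525) or HMLE-pBp mock replicate 3 (0.0577), within a range of 0.0018 to 0.06. The alpha paralog TMED4 differed by 0.28 ± 0.09 and was not called (adjusted p = 0.0597), but was with the replicate block within each line (0.28, adjusted p = 0.0316), within a range of 0.0297 to 0.127 (0.27 and 0.0549 without HMLE-Twist mock replicate 1). TMED1 differed by 0.44 (95% interval -0.01 to 0.89; adjusted p = 0.17), TMED5 by 0.24 (-0.12 to 0.59), TMED7 by 0.20 (-0.18 to 0.58) and TMED2 by 0.18 (-0.11 to 0.47), none of them called. TMED10 differed by -0.01, with an interval of -0.26 to 0.25. Without HMLE-Twist mock replicate 1 these differences were 0.25 for TMED1, 0.37 for TMED5, 0.34 for TMED7, 0.24 for TMED2 and 0.07 for TMED10, still with none called (adjusted p of 0.0763 to 0.658).

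All 8 members were lower in HMLE-Twist than in HMLE-pBp under the mock. Lower genes made up 37.2% of all tested genes in this comparison and higher genes 36.1%, 73.3% in all; the members' median was -1.22 (log2), against 0.00 over all tested genes. TMED3 averaged 26.2 ± 2.32 FPKM in HMLE-Twist mock and 84.9 ± 6.22 FPKM in HMLE-pBp mock, a change of -1.66 ± 0.10 (adjusted p = 1.97e-08). TMED9 averaged 178 ± 28.8 FPKM in HMLE-Twist mock and 486 ± 25.1 FPKM in HMLE-pBp mock (-1.45 ± 0.11, adjusted p = 1.13e-07). TMED7 averaged 54.8 ± 10.0 FPKM in HMLE-Twist mock and 147 ± 8.42 FPKM in HMLE-pBp mock (-1.42 ± 0.12, adjusted p = 4.8e-07). In each of the 8 genes the 3 HMLE-Twist libraries lay under the 3 HMLE-pBp libraries, which held for 37.1% of all tested genes. The smallest gap was that of TMED1, at 20.7 ± 4.69 FPKM in HMLE-Twist mock and 31.9 ± 3.19 FPKM in HMLE-pBp mock (-0.62 ± 0.15, adjusted p = 0.0022; -0.43 ± 0.11 and 0.00359 without HMLE-Twist mock replicate 1). Without that library the gap was -1.59 for TMED3, -1.32 for TMED9, -1.56 for TMED7, -1.25 for TMED4 and TMED10, -1.09 for TMED5 and -1.0 for TMED2, and all 8 were called. The same mock libraries enter the salinomycin comparisons, and the gaps and the responses are therefore not independent.

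Under salinomycin 7 of the 8 members were lower in HMLE-Twist than in HMLE-pBp, where 32.0% of all tested genes were lower and 31.3% higher, 63.3% in all. The same 7 had HMLE-Twist libraries all under the HMLE-pBp libraries, which held for 34.7% of all tested genes. The members' median was -0.79 (log2), against 0.01 over all tested genes. TMED3 averaged 53.5 ± 1.14 FPKM in HMLE-Twist and 78.6 ± 10.3 FPKM in HMLE-pBp, both with salinomycin (-0.54 ± 0.10, adjusted p = 5.79e-04). TMED9 averaged 337 ± 25.4 FPKM in HMLE-Twist and 597 ± 25.3 FPKM in HMLE-pBp (-0.83 ± 0.11, adjusted p = 2.65e-05). TMED10 averaged 85.4 ± 0.683 FPKM in HMLE-Twist and 195 ± 15.7 FPKM in HMLE-pBp (-1.18 ± 0.08, adjusted p = 8.57e-08), close to its -1.17 ± 0.08 under the mock. TMED1 overlapped between the lines at 24.1 ± 0.635 FPKM in HMLE-Twist and 27.5 ± 3.33 FPKM in HMLE-pBp, and was not called (-0.18, 95% interval -0.50 to 0.14; adjusted p = 0.31).

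The order of the 4 groups was not the same for every gene. TMED2, TMED7, TMED9 and TMED10 were highest in HMLE-pBp with salinomycin, and TMED1, TMED3, TMED4 and TMED5 in HMLE-pBp mock, but the 2 HMLE-pBp groups overlapped in TMED1, TMED3, TMED7 and TMED10. The lowest group was HMLE-Twist mock for every member except TMED5, which was lowest in HMLE-Twist with salinomycin. HMLE-Twist with salinomycin and its mock overlapped in TMED1 and TMED10 only, and HMLE-Twist with salinomycin overlapped the lower HMLE-pBp group in TMED1 only.

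The make-up of the family is given by each member's share. In HMLE-Twist the share of TMED9 in the summed FPKM of the 8 genes was 37.2 ± 1.79% with salinomycin and 29.3 ± 4.79% in the mock, and the libraries did not overlap. TMED3 held 5.93 ± 0.292% with salinomycin and 4.31 ± 0.392% in the mock. TMED10 held 9.45 ± 0.263% with salinomycin and 13.4 ± 1.18% in the mock, and TMED5 held 2.35 ± 0.116% with salinomycin and 4.28 ± 0.696% in the mock (SD, n = 3 each). The first 2 shares were larger and the last 2 smaller in every salinomycin library. Without mock replicate 1 the mock means were 32.0% for TMED9, 4.53% for TMED3, 12.8% for TMED10 and 3.88% for TMED5. In HMLE-pBp the share of TMED2 was 30.0 ± 0.776% with salinomycin and 27.5 ± 1.33% in the mock, without overlap. TMED3 held a smaller share there, at 4.79 ± 0.457% with salinomycin and 5.98 ± 0.243% in the mock, and TMED5 held 2.18 ± 0.101% with salinomycin and 3.61 ± 0.10% in the mock. TMED10 held 11.9 ± 0.34% with salinomycin and 13.1 ± 0.45% in the HMLE-pBp mock, and TMED1 held 1.67 ± 0.126% and 2.25 ± 0.129%. The TMED4 share was smaller in both lines, at 2.37% against 2.98% in HMLE-pBp and at 2.12% against 2.79% in HMLE-Twist, without overlap. In HMLE-pBp only the shares of TMED7 and TMED9 overlapped between salinomycin and the mock. An exact test of 3 against 3 libraries cannot go below p = 0.1, and the shares were not tested.

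**Figure D3:**
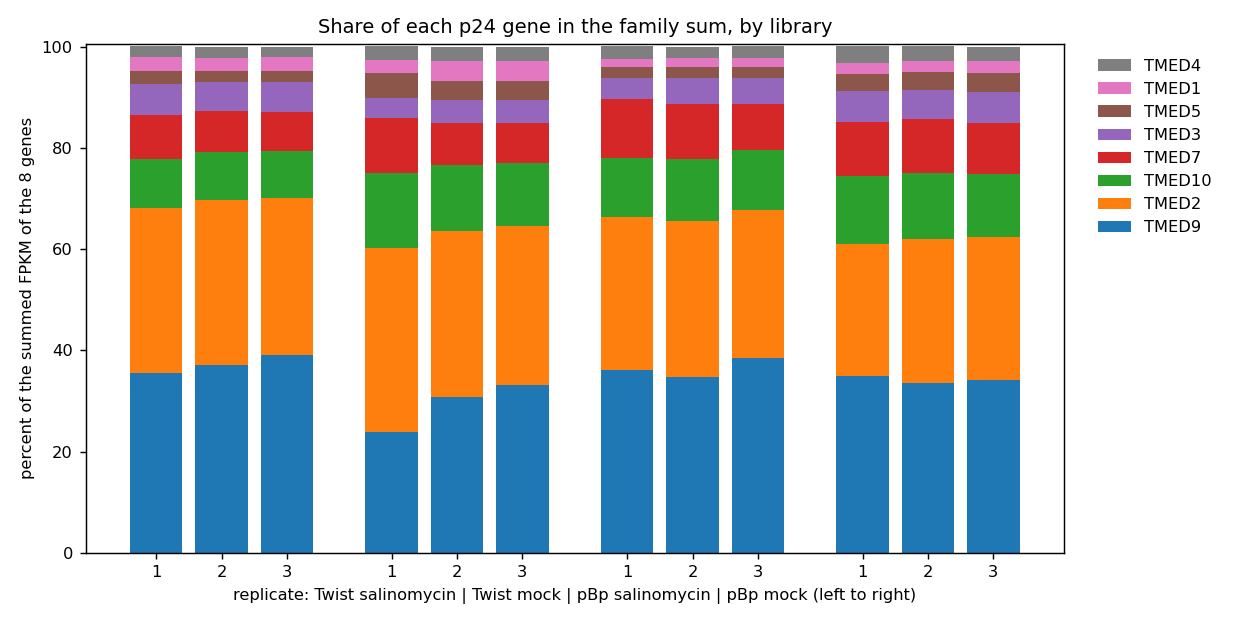
Share of each p24 gene in the summed FPKM of the 8 genes, in percent, 1 bar per library. TMED9 and TMED2 make up most of every bar, and TMED9 takes its smallest share, 23.9%, in HMLE-Twist mock replicate 1.

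Within the gamma subfamily the ratios of the paralogs were as follows. TMED3 over TMED5 was 2.53, 2.54 and 2.51 in HMLE-Twist with salinomycin, against 0.761, 1.14 and 1.20 in its mock. In HMLE-pBp this ratio was 2.05, 2.20 and 2.33 with salinomycin, against 1.73, 1.56 and 1.70 in the mock. It was higher in every salinomycin library of either line, and the gene of this pair that was called was TMED3 in HMLE-Twist and TMED5 in HMLE-pBp. TMED3 over TMED7 was 0.728, 0.707 and 0.738 in HMLE-Twist with salinomycin, against 0.358, 0.529 and 0.592 in its mock. In HMLE-pBp it was 0.363, 0.453 and 0.551 with salinomycin, against 0.568, 0.543 and 0.622 in the mock, and there the groups overlapped. The 4 gamma genes together summed to 173 ± 2.06 FPKM in HMLE-Twist with salinomycin and 128 ± 7.57 FPKM in its mock (123 FPKM without replicate 1), and to 317 ± 28.5 FPKM in HMLE-pBp with salinomycin and 315 ± 19.9 FPKM in its mock (SD, n = 3 each).

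Levels of different genes depend on the gene length behind the FPKM. The recovered lengths of TMED5, TMED7, TMED9 and TMED10 were 1.01, 1.08, 0.946 and 1.00 of the longest transcript in the reference, and TMED2 was at 0.83. TMED1 was at 1.39, TMED4 at 1.63 and TMED3 at 0.202, since the longest reference transcript of TMED3 has 16555 bases against 3342 recovered. With reference lengths the share of TMED3 would be 1.32% in HMLE-Twist with salinomycin and 0.933% in its mock. Each gene has 1 length in all libraries, so a change between groups depends on it little.

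The machinery that p24 proteins work with was described by lists of genes, with no test of a list. The counts are read beside the shares of all tested genes. In HMLE-Twist 12.9% of these rose and 13.6% fell, and in HMLE-pBp 9.63% rose and 9.49% fell. Towards HMLE-Twist 6.95% differed and the other way 6.68%, and the median response was -0.01 (log2) in either line. Counts with the replicate block within each line are read beside larger shares. With it 19.6% rose and 21.0% fell in HMLE-Twist, and 17.3% rose and 19.6% fell in HMLE-pBp. Towards HMLE-Twist 16.9% then differed, and the other way 15.5%. Each pair of medians below gives HMLE-Twist and then HMLE-pBp. Of 14 genes of the COPI coat and of the ARF1 cycle that drives it, 11 rose and 2 fell in HMLE-Twist, and 12 rose and none fell in HMLE-pBp, with medians of 0.74 and 0.67. The response was larger in HMLE-Twist for 1 of the 14 and smaller for 3, or for 5 with the replicate block within each line. The COPI subunits COPA and COPG1 rose by 1.19 and 1.17 in HMLE-Twist, and by 1.30 and 1.22 in HMLE-pBp. ARFGAP1, which ends the ARF1 cycle, rose by 1.41 ± 0.14 in HMLE-Twist and by 0.59 ± 0.14 in HMLE-pBp. ARFGAP3, of the same function, rose by 0.80 ± 0.10 in HMLE-Twist and by 1.26 ± 0.10 in HMLE-pBp. Of 13 COPII coat and ER exit site genes, 10 rose and none fell in either line, with medians of 0.65 and 0.64, and none differed between the lines, or 2 with the replicate block within each line. SEC24D, a cargo-binding subunit of the COPII coat, rose by 1.32 ± 0.15 in HMLE-Twist and by 1.76 ± 0.15 in HMLE-pBp, SEC13 by 1.24 and 1.05, SEC16A by 1.16 and 0.82, and SEC24A by 1.15 and 1.13, each pair with HMLE-Twist before HMLE-pBp.

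The 14 other cargo receptors between ER and Golgi had 6 genes that rose and 1 that fell in HMLE-Twist, and 2 that rose and 2 that fell in HMLE-pBp, with medians of 0.17 and -0.18. With the replicate block within each line 4 rose and 6 fell in HMLE-pBp, where 17.3% and 19.6% of all tested genes did. The difference of responses was called in 6 of 14, all towards HMLE-Twist. With that block it was called in 9 towards HMLE-Twist and 1 the other way, as in 16.9% and 15.5% of all tested genes. KDELR3, a retrieval receptor for ER proteins, rose by 2.50 ± 0.13 in HMLE-Twist and by 2.95 ± 0.13 in HMLE-pBp. KDELR2, of the same kind, rose by 1.04 ± 0.09 in HMLE-Twist and by 0.62 ± 0.09 in HMLE-pBp. LMAN1, a lectin that carries glycoproteins out of the ER, rose by 1.01 ± 0.12 in HMLE-Twist (adjusted p = 1.06e-04) and was at 0.34 ± 0.12 in HMLE-pBp (adjusted p = 0.0678; 0.0182 with that block, and 0.00732 without HMLE-Twist mock replicate 1). ERGIC2 fell by 0.30 in HMLE-pBp and was not called in HMLE-Twist. Under the mock 13 of these 14 genes were lower in HMLE-Twist than in HMLE-pBp and 1 higher, with a median of -1.02, against 37.2% of all tested genes that were lower. The coats went the other way, with 11 of 14 COPI genes higher in HMLE-Twist and 1 lower (median 0.61). Of 13 COPII genes 8 were higher and 3 lower (median 0.41), where 36.1% of all tested genes were higher. The mock medians of the lists below were -0.85 (GPI anchor synthesis), -0.8 (GPI-anchored proteins), -1.62 (Wnt secretion), 0.0 (Golgi partners) and 0.13 (regulators).

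Cargo that p24 proteins are known to sort was followed in the GPI lists. Of 27 tested genes that build or remodel the anchor, 3 rose and 4 fell in HMLE-Twist, and 1 rose and 2 fell in HMLE-pBp, with medians of -0.04 and -0.13, so that the share called in HMLE-Twist was near that of all tested genes. Without HMLE-Twist mock replicate 1 the HMLE-Twist counts were 2 and 2. With the replicate block within each line 4 rose and 6 fell in HMLE-Twist, and 1 rose and 6 fell in HMLE-pBp. The share that fell was then near that of all tested genes in either line (21.0% and 19.6%). The difference of responses was called in 2 towards HMLE-Twist and 1 the other way, or with that block in 6 and 2. PIGL and PIGG, enzymes of anchor synthesis, rose by 0.64 ± 0.13 and 0.44 ± 0.08 in HMLE-Twist, PIGF fell by 0.44 ± 0.10 in HMLE-Twist and by 0.38 ± 0.10 in HMLE-pBp, and PGAP2, which remodels the lipid, fell by 0.51 ± 0.10 in HMLE-pBp. PIGA rose by 0.56 ± 0.11 in HMLE-pBp. Of 21 tested GPI-anchored surface proteins, 9 rose and 2 fell in HMLE-Twist, and 3 rose and 2 fell in HMLE-pBp, with medians of 0.53 and -0.14. With the block 12 rose and 3 fell in HMLE-Twist, and 4 rose and 5 fell in HMLE-pBp. The difference of responses was called in 5 towards HMLE-Twist and 1 the other way, or with the block in 11 and 2. Without HMLE-Twist mock replicate 1 it was called in 7 towards HMLE-Twist and none the other way. LYPD3 rose by 1.37 ± 0.10, the urokinase receptor PLAUR by 1.17 ± 0.14 and the complement regulator CD55 by 0.83 ± 0.11 in HMLE-Twist, and none of these 3 was called in HMLE-pBp, where their changes were 0.26, -0.14 and 0.02 (LYPD3 was called there with the block, adjusted p = 0.0315). THY1 fell by 0.73 ± 0.12 in HMLE-Twist and by 0.93 ± 0.12 in HMLE-pBp, and the prion protein gene PRNP rose by 0.79 ± 0.11 in HMLE-Twist and by 0.50 ± 0.11 in HMLE-pBp. CD24 fell by 0.58 ± 0.13 in HMLE-pBp.

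Of 9 tested genes of Wnt secretion, 1 rose in HMLE-Twist, near the share of all tested genes, and 3 fell in HMLE-pBp, with medians of 0.00 and -0.16. With the replicate block within each line 2 rose in HMLE-Twist and 4 fell in HMLE-pBp. The difference was called in 2, or with that block in 5, all towards HMLE-Twist. WLS, the carrier of Wnt proteins to the cell surface, rose by 0.24 ± 0.08 in HMLE-Twist (adjusted p = 0.0355) and fell by 0.39 ± 0.08 in HMLE-pBp (adjusted p = 0.00486). WNT7B and WNT9A fell by 0.45 ± 0.09 and 0.95 ± 0.30 in HMLE-pBp. Among 7 Golgi partners of p24 proteins, 3 rose and 2 fell in HMLE-Twist, and 2 rose in HMLE-pBp, with medians of 0.13 and 0.08; neither fall was called without HMLE-Twist mock replicate 1. GOLGA2, a Golgi matrix protein, rose by 1.39 ± 0.07 in HMLE-Twist and by 1.18 ± 0.07 in HMLE-pBp, OSBP by 0.85 and 0.92, and GORASP2 by 0.61 in HMLE-Twist, with 0.19 in HMLE-pBp that was not called. Among 7 tested regulators of secretory genes, 4 rose and 1 fell in HMLE-Twist and 3 rose in HMLE-pBp, with medians of 0.36 and 0.18. XBP1, a factor of the unfolded protein response, rose by 0.91 ± 0.13 in HMLE-Twist and by 0.89 ± 0.13 in HMLE-pBp, and CREB3 by 0.93 ± 0.12 and 1.20 ± 0.12. ATF4 rose by 0.62 ± 0.15 in HMLE-Twist and by 0.58 ± 0.15 in HMLE-pBp, and CREB3L1 fell by 0.69 ± 0.12 in HMLE-Twist.

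**Figure D4:**
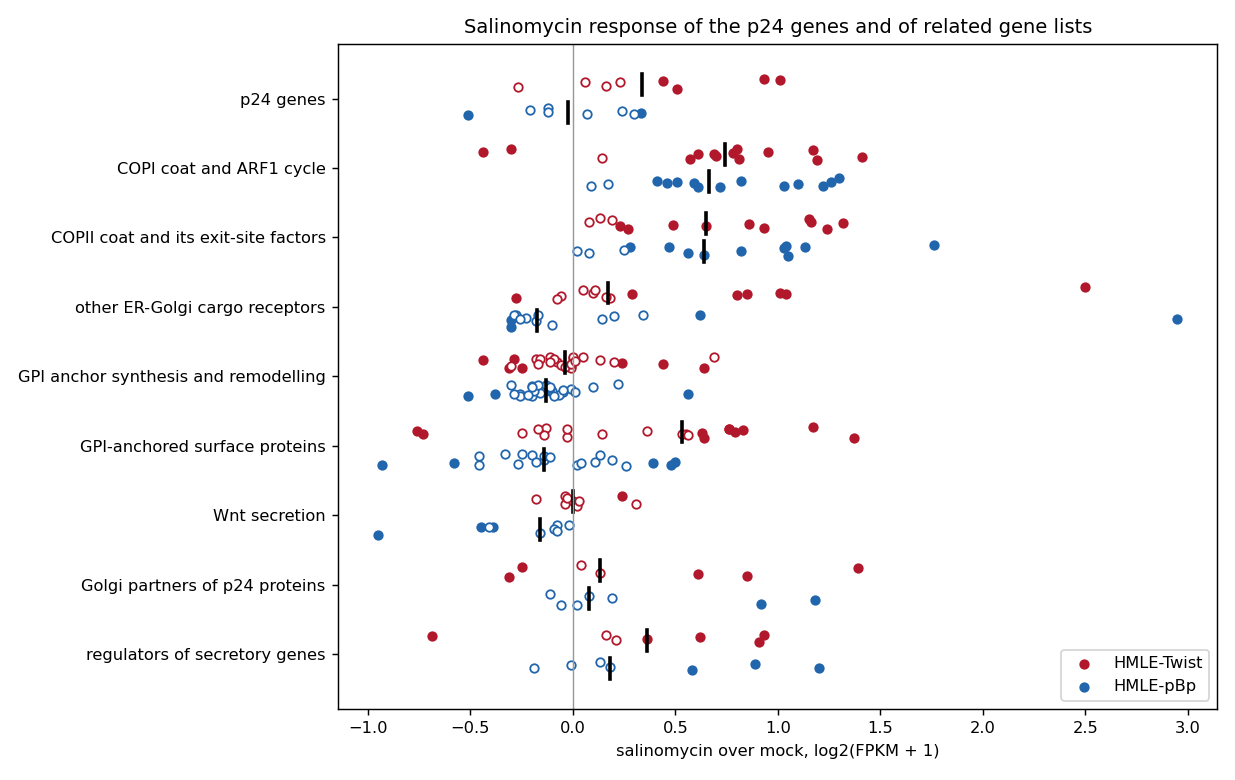
Change with salinomycin over the mock in log2(FPKM + 1) for the p24 genes and for 8 lists of related genes, HMLE-Twist above HMLE-pBp in each row. Each point is a gene, filled where its adjusted p is under 0.05, and the black bar is the list's median; the COPI and COPII lists have medians of 0.64 to 0.74 in either line, and the p24 genes 0.33 in HMLE-Twist and -0.02 in HMLE-pBp.

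Likeness of profiles was measured as the root mean square difference, over the 12 libraries, of log2(FPKM + 1) centred on each gene's own mean, and the 12 values share 4 groups, so that it mostly describes the group means. The tested genes nearest to the mean profile of the 8 members were TM9SF4 (0.0421), ATRN (0.07), PKP1 (0.0723), PIGG (0.0753) and ABCD4 (0.0768). TM9SF4, a multispanning membrane protein, had log2 differences of 0.39 in HMLE-Twist, -0.08 in HMLE-pBp and -1.19 between the lines under the mock. Nearest to TMED3 were TRIM47 (0.117) and ALG3 (0.123), and nearest to TMED9 were TMEM208 and MOGS (0.119 each). MOGS, a glucosidase that trims glycans in the ER, had log2 differences of 1.08 in HMLE-Twist and 0.05 in HMLE-pBp. For TMED10 they were PDIA3 (0.0501), a disulfide isomerase of the ER, and SNX19 (0.0582). For TMED2 they were SEC63 (0.0803), a partner of the ER translocon, and SGMS2 (0.087), and for TMED7 DNAJC10 (0.0927) and ATP6V0A2 (0.0977). TMED5 was nearest to PNPT1 (0.0704) and FASTKD2 (0.0729), TMED4 to PIGO (0.0806) and IFIH1 (0.0819), and TMED1 to WASH2P (0.0763). Among the members themselves TMED10 and TMED4 were most alike (0.127), followed by TMED3 and TMED9 (0.177), while TMED5 and TMED9 were farthest apart (0.569).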

How the data were processed

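The authors deposited 1 table per group, per the file headers: FPKM for the mock and, judged from the values, deposited log2 values with the spread between libraries shrunk for salinomycin. The salinomycin values were labelled FPKM too, and this label was set aside because of the values. Treatment thus coincided with the deposited unit in either line. An error in undoing the shrinkage could not be told apart from a salinomycin response. The submitters' processing notes name DESeq2 1.1.0 and hg19; aligner, counter, annotation and use of strand were not stated there.

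Whole reads were recovered from the step size of each gene (mock) and by solving the shrinkage model (salinomycin). A whole length, within 0.02 bases, came out at once for 98.99% of the 12897 genes above 100 mock reads. Of salinomycin values, 94.8% (HMLE-Twist) and 94.0% (HMLE-pBp) lay within 0.1 of a whole read. Above 10000 reads, where TMED2 and TMED9 often lie, only 26.4% and 25.6% did. Values spread evenly between whole reads would give a share not far below that, so exact recovery was not shown there. Above 1000 reads the largest distance was 0.0443% and 0.0451% of the value. The distance to the nearest whole read is that small for any large value, so this does not measure the accuracy of the recovery. Of the lengths, 43.5% lay within 5% of the reference's. The 203 genes with an unsettled length were left out.

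FPKM were rebuilt with median-of-ratios size factors over the 12 libraries. Genes at 1 FPKM or more in at least 3 libraries were tested with limma 3.58.1 (R 4.3.3) on log2(FPKM + 1), 4 group means in 1 fit, eBayes with trend, Benjamini-Hochberg over 12092 genes. Because the deposited unit is not counts, edgeR and DESeq2 were not run; limma's voom on the recovered reads was added after the data had been seen.

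Same-numbered salinomycin and mock libraries deviated together, so numbers were taken as pairs within a line in the blocked fit. Their r was 0.454, 0.433 and 0.721 in HMLE-Twist, and 0.537, 0.23 and 0.6 in HMLE-pBp. Across lines same-numbered libraries had r of 0.281, 0.0361 and 0.599 with salinomycin, and of 0.258, 0.0677 and 0.57 in the mock, all positive. Unless the block is named, calls and shares come from the fit without it, as designed. For the salinomycin comparisons, counts with the block are given for all tested genes, for the members and for the list counts that moved most.

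Members, lists and markers were chosen with earlier results of these data known. Named genes were all members, the 3 most changed called genes of each list per line, and the genes nearest in profile; a marker and a gene near in profile are not reported here.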

Additional observations from a re-analysis of the deposited data

Results flagged for a closer look

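The salinomycin response differed between HMLE-Twist and HMLE-pBp by limma's test of the difference itself for 2 p24 members and for 13 named genes of the related lists; each value is the HMLE-Twist change minus the HMLE-pBp change on the log2 scale. Among the members, TMED3 differed by 1.12 and TMED9 by 0.63. Of the COPI genes, ARFGAP1 differed by 0.83 and ARFGAP3 by -0.46 (-0.42, adjusted p = 0.062, without HMLE-Twist mock replicate 1). COPG2 (-0.61) and ARFGAP2 (-0.39) differed too, so that 1 COPI gene differed towards HMLE-Twist and 3 the other way; these 2, GAS1 and CREB3L2 were named after their values were seen. Of the cargo receptors, LMAN1 differed by 0.68 and KDELR2 by 0.42, 2 of 6 called. Among genes of GPI anchor synthesis, PIGL differed by 0.84, PIGG by 0.45 and PIGA by -0.56. Of the GPI-anchored proteins, PLAUR differed by 1.32, LYPD3 by 1.12 and CD55 by 0.82, 3 of 5 called towards HMLE-Twist, and GAS1 by -0.58, the only one called the other way. Without HMLE-Twist mock replicate 1 the GAS1 call was lost, with 7 of these proteins called towards HMLE-Twist and none the other way. Of the Wnt genes, WLS differed by 0.64 and WNT7B by 0.47. The regulators CREB3L1 and CREB3L2 differed by -0.69 and by 0.55. Towards HMLE-Twist 6.95% of all tested genes differed, and 6.68% the other way. The 13 list genes had been named for a large called change in at least 1 line, so their number is not comparable with these shares.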

How the results depend on the processing

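TMED2, TMED3 and TMED9 kept their rise in HMLE-Twist, and TMED3 its difference between the lines, under each alternative run for them. All 8 members under the mock, and 7 under salinomycin, stayed lower in HMLE-Twist. The replicate block within each line moved the genes called to 4921 in HMLE-Twist (3207 without it), 4459 in HMLE-pBp (2311) and 3926 for the difference (1648). The replicate block over all libraries gave 4073 in HMLE-pBp, 3528 for the difference and 4 members called for the difference, with TMED1 (adjusted p = 0.042) and TMED4 (0.0297) added. Leaving out 1 library gave 2258 to 3525 genes in HMLE-Twist, 1170 to 3214 in HMLE-pBp and 782 to 2399 for the difference, and between the lines 8130 to 8946 under the mock and 6849 to 8167 under salinomycin; members called ran from 3 to 4, 1 to 3 and 1 to 3 for the responses and their difference. The HMLE-pBp count was lowest without mock replicate 3, as was the difference. Without a filter TMED4 was called in HMLE-Twist (adjusted p = 0.0413) and for the difference (0.0331), and without HMLE-pBp salinomycin replicate 1 for the difference (0.0445). TMED9 was also called in HMLE-pBp in that line alone (0.0352) and without HMLE-Twist mock replicate 1 (0.0141) or 3 (0.045). The cause of these shifts was not tested. A mean FPKM of at least 5 left 2522, 1854 and 1276 genes called, pseudocount 0.1 gave 3268, 2092 and 1428, and voom 3329, 2301 and 1333. No alternative reversed a called change. The planned count tests by edgeR and DESeq2 were not run.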

Other observations

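Of the other TMED symbols in the tables, TMED6 had at most 7 reads in a library, TMED10P1, a pseudogene of TMED10, at most 4 and TMED11P none. TMED8 had 68 to 128 reads per library and was not tested, since its recovered length was not settled. TMED7-TICAM2 stayed at or under 0.572 FPKM.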
